A study of Canis lupus familiaris with 27 samples.

Results

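The cytokinesis genes described here were PRC1, ECT2, CEP55, ANLN, RACGAP1, DIAPH3 and CDCA8. They were found by an exact match of the platform's gene symbol, which gave 11 probe sets of the 42860 tested, and all 7 genes of the 15115 with a single symbol were measured. PRC1 had 4 probe sets, ANLN 2 and each of the other 5 genes 1, and where a gene had several, the brightest by mean level served as its main probe set. The Entrez Gene identifiers were 488742 for PRC1, 488172 for ECT2, 477773 for CEP55, 482401 for ANLN, 486549 for RACGAP1, 485474 for DIAPH3 and 608164 for CDCA8.

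The values came from 27 simple mammary carcinomas with invasive growth, each removed from a different dog and hybridized to 1 Affymetrix Canine Genome 2.0 array. The metastatic group held the primary tumors of 13 dogs with lymph node metastases at resection, 7 of histological grade III and 6 of grade II, 0.5 to 5 cm in size, from dogs 9 to 16 years old. The non-metastatic group held 14 tumors without lymph node metastases, 9 of grade III and 5 of grade II, 2 to 15 cm in size, from dogs 9 to 15 years old. The design called for large non-metastatic tumors of grade III, so size differed between the groups (2.42 ± 1.32 cm in metastatic and 5.21 ± 3.53 cm in non-metastatic tumors, SD, n = 13 and 14, two-sided permutation test, p = 0.00504). One non-metastatic dog, number 22, later developed lung metastases. Tissue was macrodissected for carcinoma cells, and the mean level of the mammary epithelium markers was 10.1 in metastatic tumors and 9.90 in non-metastatic tumors, and 0 of 6 markers passed the test between the groups. The disease was spontaneous, and breed, age and size varied within each group.

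Cytokinesis is the step in which a dividing cell parts into its daughter cells. What is known of it comes mostly from human, mouse, fly and worm cells. The chromosomal passenger complex and bundled microtubules form the central spindle between the separating chromosomes. Centralspindlin on these microtubules recruits the exchange factor that loads RHOA with GTP at the cortex, where RHOA turns on formins and myosin to build the contractile ring. The furrow closes onto the midbody, and the ESCRT machinery cuts the remaining bridge. The transcripts of these genes peak late in the cell cycle. In bulk tumor tissue, fewer dividing cells and less transcript per cell cannot be told apart.

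By their main probe sets, 6 of the 7 genes rose in metastatic tumors and 1, ANLN, fell, at an adjusted p under 0.05 (limma, Benjamini-Hochberg adjustment). Over all genes, 10.6% were higher and 7.27% lower by the same rule. The median difference of the 7 genes was 2.27 on the log2 scale, against -0.0019 over all genes. All values are log2 levels, in which a difference of 1 is a doubling, and levels of different probe sets cannot be set against each other.

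CDCA8 encodes borealin, a subunit of the chromosomal passenger complex that holds the complex on centromeres and later on the central spindle. Its log2 level ran from 2.37 to 7.10 with a median of 5.14 in metastatic tumors, against 2.19 to 3.36 with a median of 2.32 in non-metastatic tumors. In 9 of 13 metastatic tumors the level lay above every non-metastatic tumor, while dogs 5, 12, 13 and 1 lay within the non-metastatic range. The gene rose by 2.27 on the log2 scale (SE 0.45, adjusted p = 0.00177), the mean being 4.69 ± 1.68 in metastatic tumors and 2.42 ± 0.31 in non-metastatic tumors (SD, n = 13 and 14). The non-metastatic tumors were low on a scale where the median of all deposited values was 3.66, so their spread says little about differences among them and no fold is given.

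PRC1 bundles antiparallel microtubules into the central spindle. Its level ran from 5.17 to 9.92 with a median of 7.26 in metastatic tumors, against 2.27 to 7.83 with a median of 4.29 in non-metastatic tumors. All 13 metastatic tumors lay above the non-metastatic median, which held for 4.19% of all genes, and 11 of 14 non-metastatic tumors lay below the lowest metastatic tumor. PRC1 had the largest difference of the 7 genes, 3.10 (SE 0.58, 95% interval 1.90 to 4.30, adjusted p = 0.00124), a fold of 8.58. Its lowest non-metastatic values lay below 3.66, the median of all deposited values, which limits the precision of that fold.

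RACGAP1, which forms centralspindlin together with the kinesin KIF23, ran from 5.15 to 8.53 with a median of 7.71 in metastatic tumors, against 2.28 to 7.33 with a median of 5.56 in non-metastatic tumors. The groups overlapped more than for PRC1, with 8 of 13 metastatic tumors above every non-metastatic tumor and 5 of 14 non-metastatic tumors below every metastatic one. RACGAP1 rose by 1.69 (SE 0.45, adjusted p = 0.0117), a fold of 3.23.

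ECT2, the exchange factor for RHOA that binds centralspindlin, ran from 5.83 to 10.23 with a median of 8.31 in metastatic tumors, against 2.78 to 8.37 with a median of 5.61 in non-metastatic tumors. The lowest of the non-metastatic values, 2.78 in dog 17, stood well below the next, 4.15 in dog 21. Dog 17 was also the lowest non-metastatic tumor for PRC1 and RACGAP1. ECT2 rose by 2.40 (SE 0.51, adjusted p = 0.00272), a fold of 5.27.

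DIAPH3 is a formin that nucleates unbranched actin filaments and is turned on by RHOA. Its level ran from 3.53 to 8.38 with a median of 4.97 in metastatic tumors, against 2.78 to 5.85 with a median of 3.48 in non-metastatic tumors. The top non-metastatic value came from dog 22, and the next, in dog 14, was 4.13. DIAPH3 rose by 1.75 (SE 0.44, adjusted p = 0.00784), a fold of 3.37. Its non-metastatic median lay below 3.66, the median of all deposited values, which limits what the fold can say.

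CEP55 gathers at the midbody and brings in the ESCRT proteins. Its level ran from 4.02 to 8.91 with a median of 6.84 in metastatic tumors, against 3.19 to 6.09 with a median of 3.71 in non-metastatic tumors. Of the 7 genes it had the most metastatic tumors above every non-metastatic one, 10 of 13, the exceptions being dogs 5, 11 and 12. CEP55 rose by 2.38 (SE 0.42, adjusted p = 0.000760), a fold of 5.22, the smallest adjusted p of the 7 genes. The lowest non-metastatic values of CEP55 lay below 3.66, the median of all deposited values, which limits the precision of that fold.

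ANLN encodes anillin, a scaffold that ties actin, myosin and septins to the furrow. Its main probe set ran from 4.41 to 4.71 with a median of 4.51 in metastatic tumors, against 4.50 to 5.70 with a median of 4.78 in non-metastatic tumors. All 13 metastatic tumors lay below the non-metastatic median, with a spread of 0.10 (SD, n = 13) against 0.46 (SD, n = 14) in non-metastatic tumors. The difference was -0.44 (SE 0.13, adjusted p = 0.0185), a fold of 0.736. With the upper quartile of each array as a covariate the difference was 0.034 (adjusted p = 0.837), and with the mean of both ANLN probe sets it was 0.15 (adjusted p = 0.664).

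The other ANLN probe set, of mean level 3.00, was on the other side of 0, although it did not pass. It read 5.85 in dog 2, 5.85 in dog 6 and 5.33 in dog 7, and from 2.27 to 3.70 in the other metastatic tumors, against 2.29 to 4.15 in non-metastatic tumors. Its difference was 0.73 (SE 0.39, adjusted p = 0.168 over all probe sets). The 2 probe sets of ANLN therefore gave no common direction, and no call on the transcript as a whole can be read from them.

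**Figure D1:**
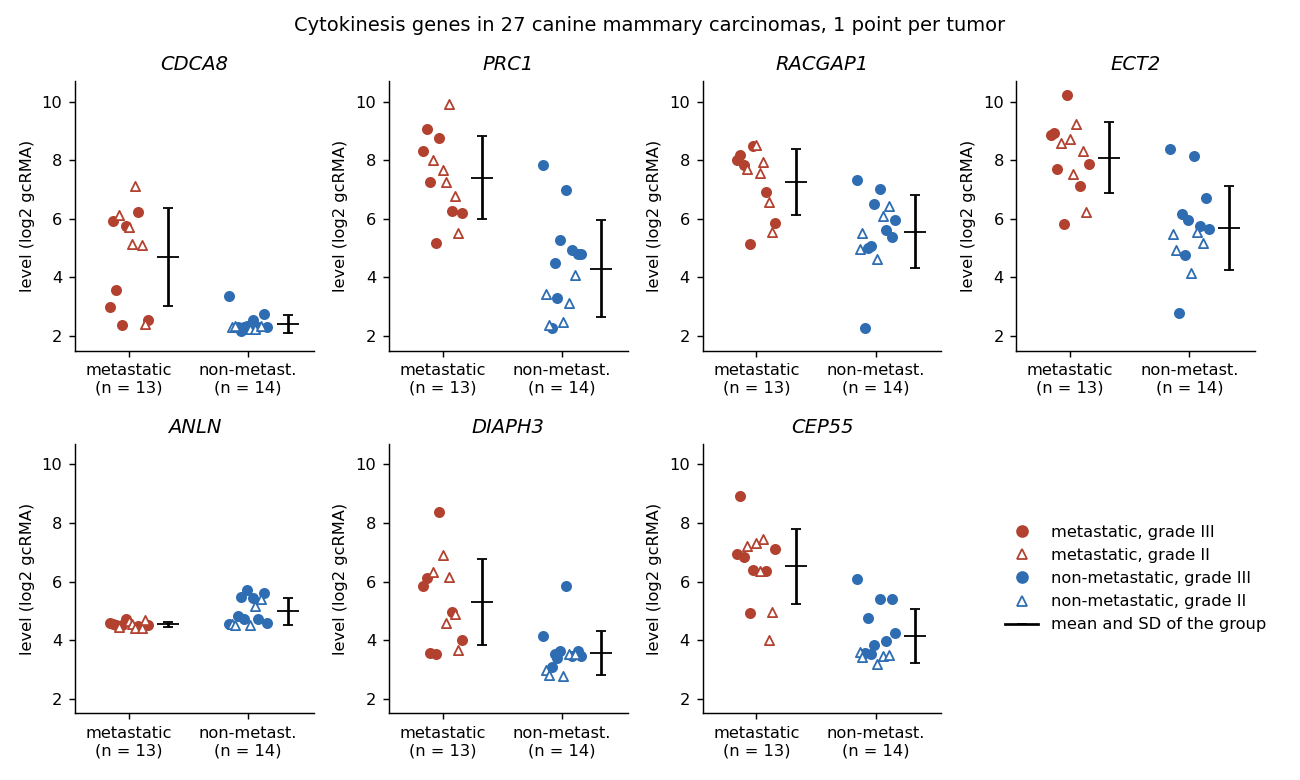
Log2 gcRMA levels of the main probe set of each cytokinesis gene, with metastatic tumors (n = 13) left and non-metastatic tumors (n = 14) right. Circles are grade III and triangles grade II tumors, and the bar gives mean and SD. For 6 genes the metastatic tumors stand higher with overlap between the groups, and for ANLN the metastatic tumors lie between 4.41 and 4.71, below most non-metastatic ones.

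For none of the 7 genes did the groups stand fully apart, a pattern that 0.0331% of all genes showed with the metastatic tumors higher. The remaining probe sets of PRC1 differed in the same direction as the main one and by less. The one of mean level 3.54 rose by 2.05 (SE 0.44, adjusted p = 0.00292 over all probe sets, of which 9.76% were higher). The one of mean level 3.70 differed by 1.03 (SE 0.46, adjusted p = 0.101) and the dimmest, of mean level 2.74, by 0.28 (SE 0.11, adjusted p = 0.0631), and neither passed. Across metastatic tumors the probe set that rose followed the main PRC1 probe set (Pearson r = 0.92, Spearman rho = 0.92, adjusted p = 1e-04 and 0.00070 from two-sided permutation tests over 20 probe set pairs, r = 0.87 without the 2 tumors farthest from the median). For the dimmest one no relation passed (r = 0.12, rho = 0.24, adjusted p = 0.696 and 0.449 from permutation tests, r = 0.20 without the 2 tumors farthest from the median). Its levels spanned 2.54 to 3.84 in metastatic and 2.47 to 2.84 in non-metastatic tumors.

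**Figure D2:**
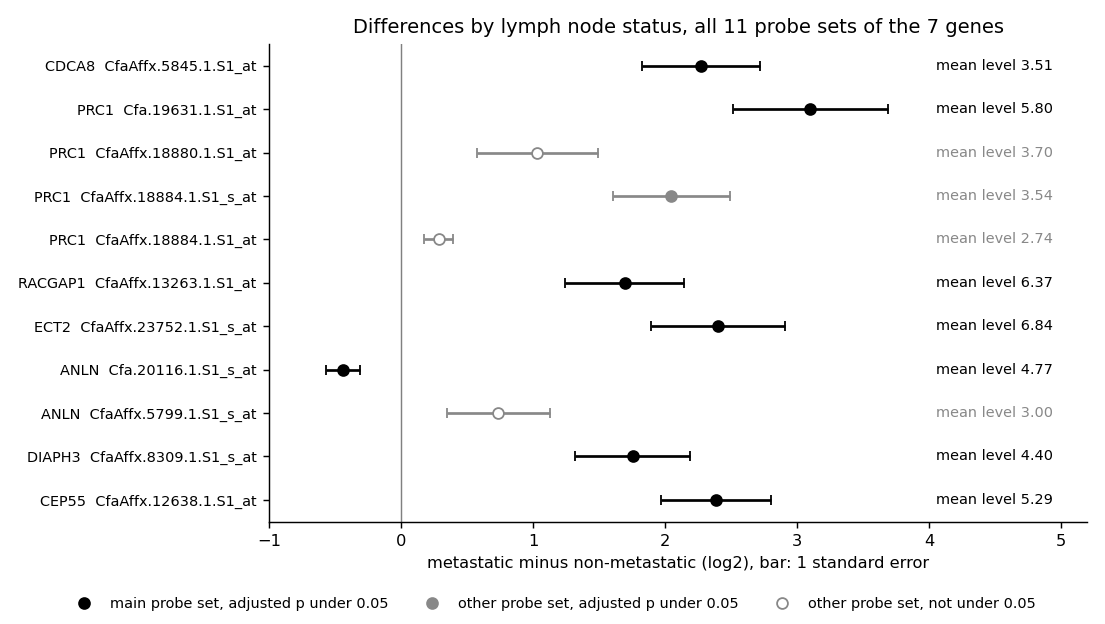
Difference in log2 level, metastatic minus non-metastatic tumors, for each of the 11 probe sets, with 1 standard error. The main probe set is black and other probe sets grey, open symbols did not pass an adjusted p of 0.05, and the mean level over all tumors stands at the right. The main probe sets of 6 genes lie between 1.69 and 3.10, and the 2 probe sets of ANLN lie on opposite sides of 0.

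The tumors that departed from their group were largely the same for several genes. Among non-metastatic tumors dog 14 was highest for CDCA8, PRC1, RACGAP1, ECT2 and CEP55, and dog 22 was highest for DIAPH3 and next after dog 14 for PRC1, RACGAP1, ECT2 and CEP55. By the mean log2 level of the 7 genes, dogs 14 and 22 ranked 9 and 10 of 27, with 5.95 and 5.92. Among metastatic tumors dogs 6, 9 and 2 had the highest means, 7.53, 7.45 and 7.39. Dogs 12 and 5 had the lowest means of that group, 4.72 and 4.50, which ranked 16 and 18 of 27. Their tumors, of 4 and 5 cm, were the largest of the metastatic group. Leaving out any 1 of the 27 tumors kept all 7 calls. The difference of PRC1 was lowest at 2.89 without dog 9 and highest at 3.37 without dog 14.

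Other measures of the tissue and the arrays moved with lymph node status. The mean level of a DNA replication list was 8.51 ± 0.67 in metastatic and 7.41 ± 0.55 in non-metastatic tumors (SD, n = 13 and 14, permutation test, p = 0.00024), and 21 of its 31 measured genes rose and 0 fell. Smooth muscle and myoepithelial markers averaged 8.57 (7.02 to 9.52) in metastatic and 10.0 (7.85 to 10.8) in non-metastatic tumors (permutation test, p = 0.00012), and 4 of 9 fell. Lymph node stroma markers averaged 9.22 (7.83 to 11.1) in metastatic and 7.49 (5.64 to 8.93) in non-metastatic tumors (permutation test, p = 0.00047). Of the 4 measured, the chemokine CCL21 alone rose, by 2.97 (adjusted p = 0.0102). B and plasma cell markers averaged 5.21 (3.98 to 7.11) in metastatic and 4.65 (4.19 to 5.11) in non-metastatic tumors (permutation test, p = 0.0197), with 0 of 6 past the test. The difference between the 3′ and 5′ GAPDH control probe sets, a sign of RNA quality, was 1.84 ± 0.32 in metastatic and 1.32 ± 0.42 in non-metastatic tumors (SD, permutation test, p = 0.00232). The upper quartile of all log2 levels on an array stood at 7.93 ± 0.040 for the metastatic arrays, against 7.75 ± 0.15 for the non-metastatic arrays (SD, permutation test, p = 0.00011).

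With such a measure added to the model, the size of the differences changed as follows. With the DNA replication mean as a covariate 0 of the 7 genes passed, against 93 genes higher and 77 lower of all 15115, and the differences were 1.15 for CDCA8, 1.13 for CEP55, 0.75 for PRC1, 0.22 for DIAPH3, 0.19 for ECT2, 0.031 for RACGAP1 and -0.65 for ANLN. With the smooth muscle mean 0 passed, against 98 genes higher and 140 lower of all, with 1.94 for both CDCA8 and PRC1, 1.69 for CEP55, 1.20 for ECT2, 0.69 for RACGAP1, 0.63 for DIAPH3 and -0.54 for ANLN. With the lymph node stroma mean 0 passed, against 71 genes higher and 31 lower of all, and the differences were 3.10 for PRC1 (adjusted p = 0.0593), 2.23 for ECT2, 1.87 for CEP55, 1.75 for CDCA8, 1.57 for DIAPH3, 1.42 for RACGAP1 and -0.31 for ANLN. With GAPDH 5 of 7 passed, DIAPH3 (1.39, adjusted p = 0.103) and ANLN (adjusted p = 0.108) being the exceptions, against 526 genes higher and 309 lower of all. With tumor size 6 of 7 passed, ANLN (-0.31, adjusted p = 0.176) being the exception, against 655 higher and 298 lower. With the upper quartile of the array 6 of 7 passed, against 403 higher and 395 lower. These covariates were themselves associated with lymph node status, and which of them had a part in the differences was not tested.

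Within a narrower span of size, 2 to 5 cm, 2 of the 7 genes passed, against 357 higher and 150 lower of all genes. PRC1 differed by 3.28 (adjusted p = 0.0223) and CEP55 by 2.25 (adjusted p = 0.0460), while ECT2 differed by 2.32 (adjusted p = 0.0509) and the adjusted p of the others was between 0.0568 and 0.178. The sample names of all metastatic dogs but 1 and 8 end in the letter T, and those of the non-metastatic dogs do not. With this ending as a block the comparison rests on dogs 1 and 8, and 0 of the 7 genes passed, against 10 higher and 0 lower of all genes, with differences of 3.48 for PRC1, 2.51 for both ECT2 and CEP55, 2.22 for RACGAP1, 1.67 for DIAPH3, 1.64 for CDCA8 and -0.42 for ANLN. No source says whether the ending marks a batch.

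The partners of these genes in cytokinesis showed a mixed picture by lymph node status. In the list of the passenger complex and the kinases that time cytokinesis, 3 of 9 measured genes rose and 1 fell, with a median difference of 0.38. The passenger subunit BIRC5 rose by 2.13 (SE 0.43, adjusted p = 0.00203), INCENP, the scaffold of that complex, by 0.97 (SE 0.24, adjusted p = 0.00734), and the mitotic kinase PLK1 by 2.34 (SE 0.53, adjusted p = 0.00445). KLHL13, an adaptor of the CUL3 ubiquitin ligase that takes the passenger kinase off chromosomes in human cells, fell by 3.03 (SE 0.55, adjusted p = 0.000939). The phosphatase CDC14B differed by -0.12 and did not pass.

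Of the midzone motors and their partners, 4 of 8 rose and 0 fell, with a median difference of 1.03. KIF23, the motor subunit of centralspindlin, rose by 2.43 (SE 0.51, adjusted p = 0.00271), with 8.34 ± 1.18 in metastatic and 5.91 ± 1.51 in non-metastatic tumors. SHCBP1, which binds centralspindlin, rose by 2.11 (SE 0.51, adjusted p = 0.00615) and the midbody kinesin KIF20B by 0.71 (SE 0.19, adjusted p = 0.0125), a call not held after a second quantile normalization (0.53, adjusted p = 0.0906). KIF13A differed by -0.22 and did not pass.

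Of the actomyosin and septin genes of the ring 0 of 16 rose and 1 fell, with a median difference of -0.047. MYL9, a myosin regulatory light chain that is also abundant in smooth muscle, fell by 1.27 (SE 0.40, adjusted p = 0.0306), beside the lower smooth muscle markers given above. MYH9, the heavy chain of nonmuscle myosin, differed by -0.52 (adjusted p = 0.0806, and by -0.66 with adjusted p = 0.0422 after a second quantile normalization) and the RHOA effector ROCK2 by -0.69 (adjusted p = 0.126). ARHGEF2, another exchange factor for RHOA, differed by 0.25 and SEPTIN11 by 0.38, without passing. Whether these lists differ from each other was not tested.

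Among abscission and ESCRT genes 7 of 18 rose and 1 fell, with a median difference of 0.25. SPAST, the microtubule-severing enzyme spastin, rose by 0.78 (SE 0.12, adjusted p = 0.000275), the ESCRT-I subunit TSG101 by 0.80 (SE 0.14, adjusted p = 0.000873) and the ESCRT-III subunit CHMP2B by 0.74 (SE 0.17, adjusted p = 0.00531). The value for TSG101 is that of its brightest probe set. The study lists TSG101 among its down-regulated genes, and why the directions differ was not tested. IST1, an ESCRT-III protein that recruits spastin, fell by 0.54 (SE 0.11, adjusted p = 0.00219). The ubiquitin protease USP8 differed by -0.28 (adjusted p = 0.112, and by -0.44 with adjusted p = 0.0231 after a second quantile normalization).

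Of the genes for membrane traffic to the midbody, 1 of 11 rose and 1 fell, with a median difference of 0.15. The SNARE STX2 rose by 1.10 (SE 0.37, adjusted p = 0.0389), a call not held after a second quantile normalization (0.94, adjusted p = 0.102), and the exocyst subunit EXOC4 fell by 0.48 (SE 0.12, adjusted p = 0.0105). RAB8A (1.03), RAB11A (0.41) and MICAL3 (-0.084) did not pass. Over the 5 lists 15 genes rose and 4 fell, against 9 and 6 after a second quantile normalization, a setting under which 980 of all genes were higher and 960 lower, against 1595 and 1099 without it. As for proliferation markers, TOP2A rose by 2.27 (SE 0.58, adjusted p = 0.00911) and PCNA by 0.96 (SE 0.25, adjusted p = 0.0107).

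Histological grade gave no call among the 7 genes by limma, and 0% of all genes passed in either direction. At an unadjusted p under 0.05 it was 1 of 7 genes, against 5.85% of all genes. Adjusted for lymph node status, the grade III minus grade II difference was 0.83 for CEP55 (SE 0.40, p = 0.050, adjusted p = 0.738), 0.81 for PRC1 (SE 0.59, adjusted p = 0.740) and 0.47 for ECT2, and from -0.43 for CDCA8 to 0.22 for DIAPH3 for the others. The 95% interval for PRC1 ran from -0.40 to 2.02.

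Within non-metastatic tumors all 7 estimates were above 0, from 0.052 for RACGAP1 to 1.86 for PRC1, and 0 passed (1 of 7 at an unadjusted p under 0.05, against 3.9% of all genes). PRC1 ran from 2.27 to 7.83 in the 9 grade III tumors, with a median of 4.81. In the 5 grade II tumors it was 4.08, 3.45, 3.13, 2.49 and 2.38. The value of 4.08 came from dog 25, which is grade II in the labels but grade III in the study's table. Every grade II tumor lay below the grade III median, but of the grade III tumors dog 19 lay among them and dog 17 below them (difference 1.86, SE 0.79, p = 0.0273, adjusted p = 0.905). CEP55 ran from 3.52 to 6.09 with a median of 4.26 in the grade III tumors, while the 5 grade II tumors gave 3.60, 3.51, 3.46, 3.44 and 3.19, a narrow spread (SD 0.15, n = 5). These 5 values lay below 3.66, the median of all deposited values, so their spread says little about differences among them. The grade III dogs 17 and 19 read 3.55 and 3.52. The difference of CEP55 was 1.09 (SE 0.58, adjusted p = 0.905). The non-metastatic grade III tumors averaged 6.11 cm and those of grade II 3.60 cm.

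Within metastatic tumors 2 of 7 estimates were above 0, and 0 passed (0 of 7 at an unadjusted p under 0.05, against 5.53% of all genes). CDCA8 ran from 2.37 to 6.24 with a median of 3.57 in the 7 grade III tumors, against 2.42 to 7.10 with a median of 5.43 in the 6 grade II tumors. The difference of -1.07 (SE 0.63, adjusted p = 0.997) was within the spread of both grades. For PRC1 it was -0.24 (SE 0.79, adjusted p = 0.9998), and the test of whether the grade difference of PRC1 differed between the lymph node groups gave -2.10 (SE 1.12, p = 0.0725, adjusted p = 0.99999). By this interaction 0 of 7 genes passed and 0% of all genes (0 of 7 at an unadjusted p under 0.05, against 2.66% of all genes).

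**Figure D3:**
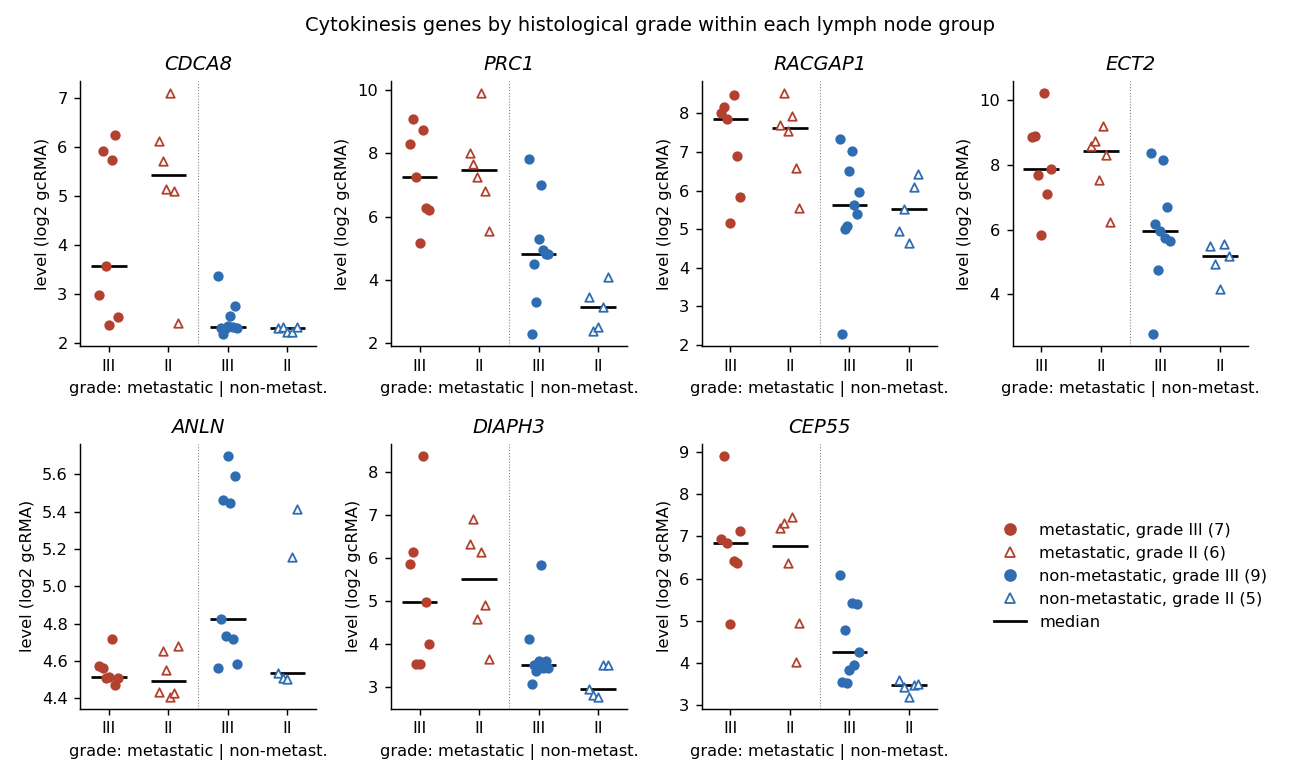
Log2 levels of the main probe sets by grade within the metastatic tumors (grade III, n = 7, and grade II, n = 6) and the non-metastatic tumors (grade III, n = 9, and grade II, n = 5), with a line at each median and an axis fitted to each gene. Non-metastatic grade II tumors sit low for PRC1 and CEP55, and the grades overlap for every gene in metastatic tumors.

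Tumor size, with 1 common slope for both groups, gave 0 calls among the 7 genes, with 0.992% of all genes called in either direction, and 1 of 7 (ANLN) at an unadjusted p under 0.05, against 8.59% of all genes. The slopes ran from -0.11 per cm for CDCA8 to 0.11 per cm for PRC1. With a slope for each group, 0 of 7 genes passed in either, against 0.0265% of all genes in metastatic and 1.06% in non-metastatic tumors. Without the tumor of 15 cm, dog 20, the common slope called 0 genes and the non-metastatic slope 1 gene of all 15115.

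In metastatic tumors 6 of the 7 slopes were below 0, and 5 had an unadjusted p under 0.05, against 8.91% of all genes. CDCA8 had the steepest, with -0.93 per cm (SE 0.18, 95% interval -1.31 to -0.55, p = 3.2e-05, adjusted p = 0.0974). It read 7.10 in the tumor of 0.5 cm, 6.24, 5.74 and 5.72 in those of 1 cm, 6.13 and 2.54 in those of 2 cm, 5.93, 5.14, 5.10, 3.57 and 2.98 in those of 3 cm, 2.42 at 4 cm and 2.37 at 5 cm. Tumors of up to 1 cm were all high, those of 2 and 3 cm split into high and low, and the largest lay at the level of the non-metastatic tumors. Per doubling of size the slope was -1.24 (adjusted p = 0.0326), and without dog 2, 11 or 13 the slope per cm passed too, with an adjusted p of 0.0283, 0.0310 and 0.00312. These were the 3 that newly passed of 189 estimates for the 7 genes with 1 tumor left out. The share of all genes passing under these settings is not given here. Without dog 9 the adjusted p was 0.461 (slope -0.86).

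DIAPH3 followed with -0.75 per cm (SE 0.21, p = 0.00128, adjusted p = 0.243), from 8.38 in a 1 cm tumor and 6.14 in the 0.5 cm tumor to 3.66 at 4 cm and 3.53 at 5 cm. The slopes of ECT2, PRC1 and RACGAP1 were -0.63, -0.62 and -0.52 per cm (adjusted p = 0.468, 0.557 and 0.492), that of CEP55 -0.45 (adjusted p = 0.594) and that of ANLN 0.0049. The other ANLN probe set had a slope of -0.42 (SE 0.21, adjusted p = 0.670 over all probe sets). With the DNA replication mean as a covariate 0 of 7 slopes passed, as without it. The slopes of PRC1 and ECT2 changed sign, to 0.100 and 0.077 per cm, and those of the other genes kept theirs.

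In non-metastatic tumors 6 of 7 slopes were above 0, at most 0.20 per cm for PRC1 (SE 0.11, adjusted p = 0.655), and CDCA8 had -0.0042 per cm. At an unadjusted p under 0.05 stood 1 of 7, against 8.88% of all genes. ANLN had 0.055 per cm (SE 0.025, p = 0.0349, adjusted p = 0.489). Without dog 20 the slope was 0.37 for PRC1, 0.20 for ECT2, 0.15 for DIAPH3 and 0.023 for ANLN, and none passed. The difference in slope between metastatic and non-metastatic tumors was -0.93 per cm for CDCA8 (SE 0.19, adjusted p = 0.158) and -0.81 for DIAPH3 (SE 0.22, adjusted p = 0.289), and 0 of 7 genes passed, against 0.0198% of all genes. At an unadjusted p under 0.05 stood 5 of 7, against 9.26% of all genes. Without dog 2 or 13 CDCA8 passed this test (adjusted p = 0.0499 and 0.00602). The share of all genes passing without these dogs is not given here. CDCA8 was low in non-metastatic tumors, from 2.19 to 3.36, where a slope could hardly show. Its difference in slope therefore adds little to its metastatic slope. The metastatic tumors spanned only 0.5 to 5 cm, and 5 of them measured 3 cm.

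**Figure D4:**
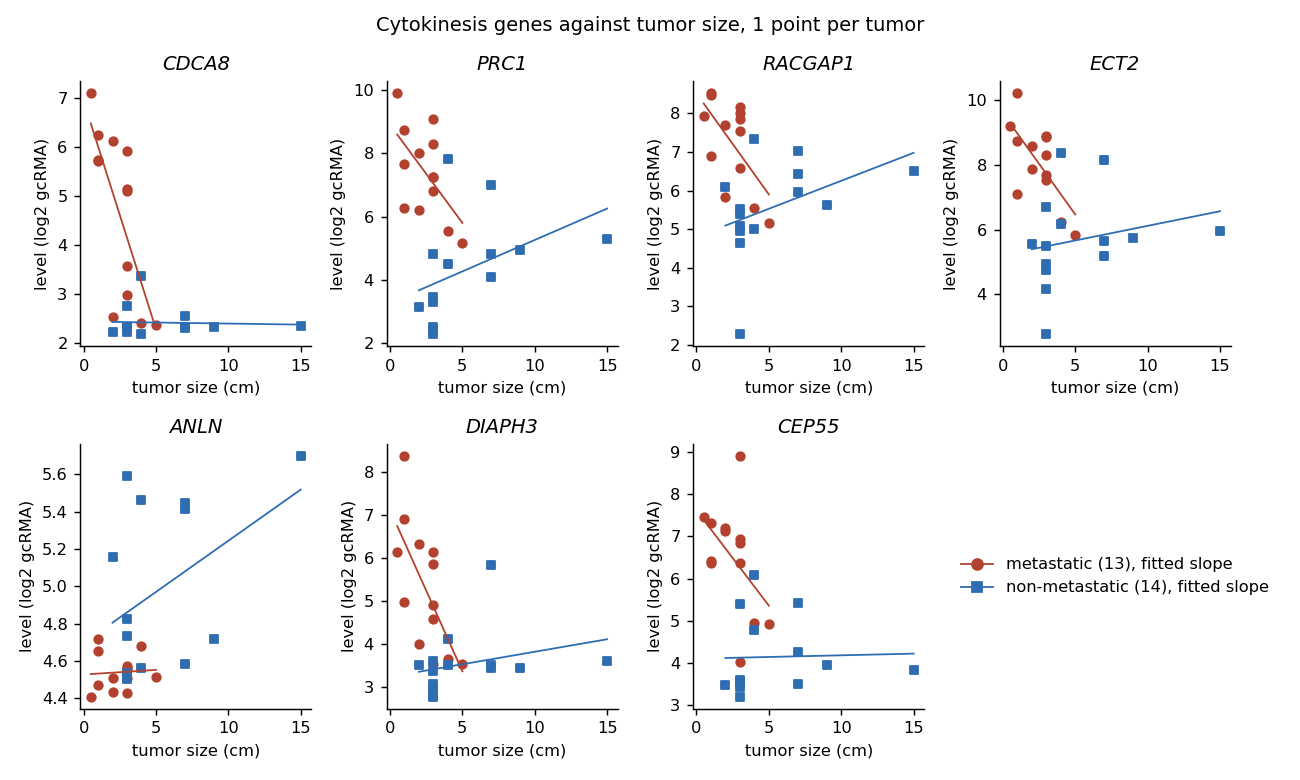
Log2 levels of the main probe sets against tumor size in cm, with metastatic tumors as circles and non-metastatic tumors as squares. The lines are the fitted slopes within each group. In metastatic tumors CDCA8 falls by 0.93 and DIAPH3 by 0.75 per cm, without passing the adjusted threshold, while the non-metastatic slopes lie between -0.0042 and 0.20.

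Survival after surgery was in the labels of 11 metastatic dogs, from 1 to 9 months. The slopes ran from -0.17 per month for CDCA8 to 0.012 per month for ECT2, and 0 of 7 genes passed (adjusted p = 0.9997 for each), as did 0% of all genes. At an unadjusted p under 0.05 stood 0 of 7, against 1.75% of all genes.

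Within each group most of the genes varied together across tumors. In metastatic tumors the 21 pairs had a median Pearson r of 0.65, from -0.25 to 0.88, and in non-metastatic tumors a median of 0.68, from -0.03 to 0.91. By two-sided permutation tests adjusted over 42 pairs, 11 pairs passed in metastatic and 11 in non-metastatic tumors. The median r of the 7 genes with other genes was -0.044 in metastatic and 0.074 in non-metastatic tumors. Of those pairs with other genes, 7.73% in metastatic and 11.2% in non-metastatic tumors had an r above 0.5. The permutation test was not run on them, so the share that would pass is not known. The strongest pair in both groups was PRC1 with ECT2 (metastatic r = 0.88, rho = 0.92, adjusted p = 0.00063 and 0.0014, and non-metastatic r = 0.91, rho = 0.89, adjusted p = 0.00042 and 0.0014, from permutation tests). Without the 2 tumors farthest from the PRC1 median these values of r were 0.86 in metastatic and 0.79 in non-metastatic tumors.

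PRC1 with RACGAP1 reached r = 0.86 (rho = 0.86) in metastatic and 0.74 (rho = 0.73) in non-metastatic tumors, and ECT2 with DIAPH3 reached 0.87 (rho = 0.83) and 0.75 (rho = 0.83), all past the adjusted threshold of the permutation tests. ECT2 with CEP55 passed in non-metastatic tumors (r = 0.85, rho = 0.87) and by rho alone in metastatic tumors (r = 0.53, rho = 0.67, adjusted p = 0.105 and 0.0294 from permutation tests). Whether the correlations differ between the groups was not tested. Without the 2 tumors farthest from the median of the first gene of a pair, 4 pairs passed in metastatic and 5 in non-metastatic tumors, a test that also rests on fewer tumors.

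The main ANLN probe set took no part in this, with 0 of 6 pairs past the threshold in either group and a median r with the other genes of 0.062 in metastatic tumors and 0.29 in non-metastatic tumors. The other ANLN probe set passed with DIAPH3 (r = 0.82, rho = 0.73, adjusted p = 0.00085 and 0.0155), ECT2 (r = 0.68, rho = 0.75), RACGAP1 (r = 0.67, rho = 0.80) and PRC1 (r = 0.65, rho = 0.79) in metastatic tumors, by permutation tests over 20 probe set pairs, and without the 2 farthest tumors these values of r were 0.65, 0.76, 0.73 and 0.77. In non-metastatic tumors none of its r values with these genes passed, although rho with DIAPH3 did (0.62, adjusted p = 0.0461 from the permutation test). The ANLN probe sets correlated with each other in non-metastatic tumors (r = 0.73, rho = 0.76, adjusted p = 0.00273 and 0.00770 from permutation tests, r = 0.69 without the 2 farthest tumors) and did not pass in metastatic tumors (r = 0.48, rho = 0.34, adjusted p = 0.152 and 0.284). Dogs 18, 20, 22, 23, 25 and 26 were the highest non-metastatic tumors for both ANLN probe sets, with 5.16 to 5.70 for the main one. Their arrays also had the lowest upper quartiles of that group, 7.52 to 7.72. Whether the correlation of the 2 probe sets reflects this array measure was not tested.

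**Figure D5:**
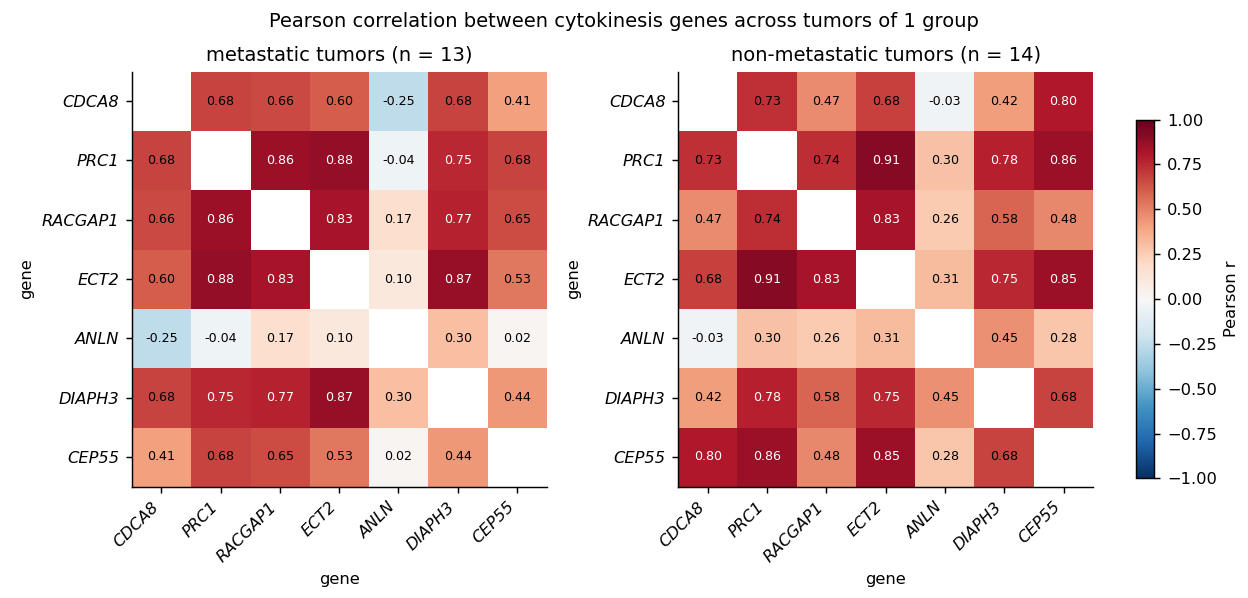
Pearson r between the main probe sets of the cytokinesis genes across metastatic tumors (left, n = 13) and non-metastatic tumors (right, n = 14), from blue at -1 to red at 1. PRC1 with ECT2 is the highest pair in both panels, 0.88 and 0.91, and the ANLN row is pale in both.

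Outside the 7 genes, those most alike in pattern over the 27 tumors, by the median Pearson r with the 7 genes after the mean of each group was taken off, were FBXO5 (0.79), KNL1 (0.78), SPC25 (0.77), LOC487476 (0.77), REXO5 (0.77) and KIFC1 (0.76). FBXO5, an inhibitor of the anaphase-promoting complex, averaged 8.16 ± 1.29 in metastatic and 6.11 ± 1.19 in non-metastatic tumors (difference 2.05, adjusted p = 0.00463). The kinetochore genes KNL1 and SPC25 rose by 1.49 (adjusted p = 0.0124) and 2.04 (adjusted p = 0.00300). LOC487476 rose by 1.74 (adjusted p = 0.0325, and 0.0722 after a second quantile normalization) and REXO5 by 1.99 (adjusted p = 0.00615). KIFC1, a minus-end-directed kinesin, was at 7.05 ± 1.75 in metastatic and 6.36 ± 1.46 in non-metastatic tumors and did not pass (difference 0.69, adjusted p = 0.429), although it varied with the cytokinesis genes inside the groups. These values are those of its brightest probe set, and the study lists KIFC1 among its up-regulated cell cycle genes.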

How the data were processed

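The authors deposited log2 values, which they computed in Partek by its gcRMA routine: background correction by RMA, then quantile normalization, then summary of the probes by median polish. These were used unchanged, without the 175 control probe sets among 43035. Groups, grade, size and survival came from the sample labels, and dog numbers from a match to the study's table. Grades differ there for dog 25. Linear models were fitted with limma 3.58.1 (R 4.3.3, empirical Bayes) over all probe sets, with Benjamini-Hochberg adjustment over 15115 genes, or over 42860 probe sets where a gene's other probe set is given. Terms were lymph node status, grade and size, separately and with interactions. Correlations were tested with 100000 permutations, in R for the 42 tests between main probe sets and in Python 3.11.15 for the 20 with other probe sets. The models were tested on simulated normal values, drawn independently for each gene, unlike the genes of these arrays. For lymph node status, 73 of 100 genes with a difference of 1 were recovered and 91 of 100 with a difference of 2, beside 16 false calls. By grade these counts were 67, 93 and 7. For slopes of 0.25 and 0.5 per cm of size they were 88, 97 and 10. Named are the 7 genes, up to 3 genes of smallest adjusted p in the main direction and 2 in the other from each of 5 cytokinesis lists, proliferation markers, and the 6 genes most alike. MKI67 had no probe set with a single symbol. The genes and lists were chosen with earlier results of these data known. Alternatives covered scaling, brightness, probe set choice, covariates and single tumors. Promoter sequences were not analysed here. The number of arrays limits the precision.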

Additional observations from a re-analysis of the deposited data

Results flagged for a closer look

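Within groups of 4 to 10 tumors of 1 lymph node status and 1 grade, single tumors were compared with the rest by the gap to the nearest tumor over the whole range (Dixon's criterion at the 95% level). Of 28 such groups 4 held a tumor past the limit. The genes were read in the same tumors and most of them varied together, so this count cannot be set against a rate by chance. DIAPH3 was 5.85 in dog 22, a non-metastatic grade III tumor, and the next was 4.13 in dog 14. CDCA8 was 3.36 in dog 14, of the same group, and the next was 2.75 in dog 26, both below 3.66, the median of all deposited values. RACGAP1 was 2.28 in dog 17, the lowest of that group, and the nearest was 4.99 in dog 18. ANLN was 4.71 in dog 6, a metastatic grade III tumor, and the next was 4.57 in dog 1, a gap that is small on the log2 scale. Each lymph node call of these genes held without the tumor concerned.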

How the results depend on the processing

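By lymph node status, all 7 genes passed with arrays centred on their median, after a second quantile normalization, by the methods' one-way ANOVA, with grade or age as a covariate, with adjustment over all probe sets and without any 1 tumor. By ANOVA, a fold of 1.7 and a Benjamini-Hochberg adjusted p of 0.001, 1 of 11 member probe sets passed, against 383 of all 42860. The study applied 0.001 to a q-value instead, and its lists hold PRC1, ECT2, DIAPH3 and CDCA8. The q-value method was not run here. Passing genes numbered 0 with the name ending as a block, 0 with each of the DNA replication, smooth muscle and lymph node stroma means as a covariate, and 2 among tumors of 2 to 5 cm. They numbered 6, without ANLN, with the mean of all probe sets, array weights, or tumor size, array upper quartile or the B and plasma cell mean as a covariate, and 5 with GAPDH. The covariates of cell type lists were chosen after seeing the data, as was the DNA replication covariate for size. The ANLN difference changed sign to 0.15 with the mean of all probe sets and to 0.034 with the upper quartile of the array. A filter on brightness removed CDCA8. Over all genes 1595 were higher and 1099 lower, against 1828 and 638 after centring and 980 and 960 after a second quantile normalization. No paired analysis was possible because the tumors came from different dogs and the labels give no replicate numbers. Calls by grade, size and survival were 0 throughout, apart from CDCA8 by size, and the estimates near 0 changed sign as follows, for causes that were not tested. By grade, RACGAP1 was 0.0033 after a second quantile normalization and 0.11 with dog 25 as grade III, and without single tumors ran from -0.19 to 0.17, and DIAPH3 from -0.015 to 0.39. In metastatic tumors PRC1 by grade was 0.00011 with the mean of all probe sets, and without single tumors PRC1 ran from -0.64 to 0.24, ECT2 from -0.40 to 0.34, ANLN from -0.0029 to 0.055, RACGAP1 from -0.46 to 0.23 and DIAPH3 from -0.75 to 0.077. In non-metastatic tumors RACGAP1 ran from -0.17 to 0.46, and its interaction from -0.57 to 0.18. By size, slopes per doubling were -0.0099 for PRC1, -0.19 for ECT2, -0.050 for RACGAP1 and, in non-metastatic tumors, 0.0033 for CDCA8. The slope of ECT2 was -0.016 with grade as a covariate, -0.017 without the largest tumor, and from -0.030 to 0.045 without single tumors. In metastatic tumors 1 gene (CDCA8) passed per doubling, and 0 to 1 per cm without single tumors, as for the difference in slope. There ANLN was -0.21 with the mean of all probe sets and from -0.010 to 0.020 without single tumors, and with the DNA replication covariate PRC1 was 0.100 and ECT2 0.077. In non-metastatic tumors CEP55 was -0.0018 after centring, -0.0031 after a second quantile normalization and from -0.0073 to 0.079 without single tumors, and CDCA8 from -0.0090 to 0.0034. By survival, leaving out single tumors gave -0.20 to 0.075 for PRC1, -0.12 to 0.14 for ECT2, -0.26 to 0.027 for CEP55, -0.21 to 0.042 for RACGAP1 and -0.21 to 0.016 for DIAPH3. Of 42 correlated pairs 22 passed, 9 without the 2 farthest tumors and 21 after a second quantile normalization. Dim probe sets such as CDCA8 in non-metastatic tumors limit what can be ordered there.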
